A study of Mus musculus with 2 samples.

Results

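The 46 cell cycle and DNA replication genes described here are cyclins and their kinases, replication licensing and fork factors, enzymes that supply deoxynucleotides, kinase inhibitors and transcription regulators of the cycle, and genes of mitosis. They were listed by name, with earlier results of these data known. All 46 symbols were found among the 43346 genes of each deposited gene table. RNA was sequenced as total RNA from the forebrain of newborn mice (postnatal day 0, strain B6NCrl), with 2 libraries that form 1 group. Each library was made from a single forebrain, from 10 ng of long RNA with spike-in RNAs added: pup 1 is replicate 1 and pup 3 is replicate 2. No genotype change, treatment or second tissue is given for either pup, sex was not collected, and both pups carry the same donor identifier. The spread between the pups may therefore hold animal and technical variation, and comparisons between groups of animals could not be made.

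The libraries held 40066386 (pup 1) and 40431595 (pup 3) expected counts, which are estimated read counts per gene with shared reads divided between genes. The 46 genes took 0.170% and 0.182% of them, with 208 to 10992 counts per gene in pup 1 and 220 to 13781 in pup 3. The forebrain transcription factor genes Dlx5 (44.3 and 39.1 TPM), Lhx2 (39.9 and 36.2 TPM) and Emx2 (9.76 and 3.94 TPM) were above 1 TPM (a transcript level scaled by transcript length and library size) in both pups. None of 5 midbrain and hindbrain markers reached 1 TPM, and the highest, En1, had 0.16 and 0.04 TPM.

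Cells that divide pass through a gap phase (G1), DNA synthesis (S), a second gap (G2) and mitosis. D-type cyclins with Cdk4 or Cdk6, and then E-type cyclins with Cdk2, inactivate the retinoblastoma protein and release E2F transcription factors, which switch on genes for replication. Cyclins A and B with Cdk1 drive mitosis, whose genes are switched on later, through B-Myb, FoxM1 and the MuvB complex. In the newborn forebrain, dividing cells are chiefly progenitors of the ventricular and subventricular zones and glial precursors, whereas most neurons have left the cycle.

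Promoters of the 46 genes were read first, since S-phase and mitotic genes are known for different promoter elements. The motifs searched on both strands were the E2F site (TTTCCCGC or TTTGGCGC), the cell cycle genes homology region, or CHR, to which MuvB complexes bind (TTTGAA or TTCGAA), and the CCAAT box, bound by NF-Y (CCAAT). RefSeq promoters (build GRCm38.p6, the same assembly as mm10) from 250 bases before to 50 after the start were found for 37 of the 46 genes. In none of their 41 windows did matches to different motifs share a base. Below are 6 promoter stretches, chosen because they hold an E2F match, or a CHR match beside a CCAAT box, in bases before the start that lie in no annotated exon. Capitals mark the motif matches, E2F only in the first pair and CHR and CCAAT in the other 4, and the sequences run 5′ to 3′ on the gene's strand, so a match on the other strand reads as its reverse complement (ATTGG for the CCAAT box, TTCAAA for CHR).
Mcm5, chr8:75109278-75109397, + strand: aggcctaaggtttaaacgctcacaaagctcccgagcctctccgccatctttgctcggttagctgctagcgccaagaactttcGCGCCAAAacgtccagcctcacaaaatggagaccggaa
Mcm6, chr1:128359715-128359834, - strand: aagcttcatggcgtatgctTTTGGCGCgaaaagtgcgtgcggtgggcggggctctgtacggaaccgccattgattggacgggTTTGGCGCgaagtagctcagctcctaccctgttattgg
Cdk1, chr10:69352948-69353067, - strand: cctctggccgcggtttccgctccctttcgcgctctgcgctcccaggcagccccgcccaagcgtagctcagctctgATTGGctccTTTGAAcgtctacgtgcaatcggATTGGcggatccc
Cdc20, chr4:118437353-118437472, - strand: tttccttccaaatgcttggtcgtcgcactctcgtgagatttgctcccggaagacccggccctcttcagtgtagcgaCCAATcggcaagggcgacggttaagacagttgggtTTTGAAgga
Mki67, chr7:135716442-135716561, - strand: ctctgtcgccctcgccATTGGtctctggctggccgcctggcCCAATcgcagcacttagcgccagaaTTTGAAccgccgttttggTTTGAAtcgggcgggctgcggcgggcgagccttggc
Top2a, chr11:99024190-99024309, - strand: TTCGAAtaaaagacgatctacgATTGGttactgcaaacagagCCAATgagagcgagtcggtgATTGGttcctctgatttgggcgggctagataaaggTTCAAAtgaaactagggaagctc

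An E2F match was present in 6 of 37 promoters (16.2%), those of Mcm3, Mcm5, Mcm6, Mcm7, Cdt1 and Cdk2, against 3.34% of 10180 detected protein-coding genes with a promoter in the same table and 1.80% of all 27025 genes in it. It was present in 5 of 8 licensing and fork genes (3 of 8 in the bases before the start), and in 0 of 11 mitosis genes and 0 of 6 genes of the mitotic cyclin role. The other roles were also low, with 1 of 5 G1 cyclins and kinases, 0 of 4 inhibitors and transcription regulators and 0 of 3 deoxynucleotide enzymes. A CHR match was present in 17 of 37 promoters (45.9%), against 15.8% of detected genes and 21.7% of all genes. It was present in 10 of 11 mitosis genes, in 4 of 6 genes of the mitotic cyclin role and in 3 of 8 licensing and fork genes (Mcm2, Cdc45 and Mcm7, which holds both motifs), and in 0 of 5 G1 cyclins and kinases, 0 of 4 inhibitors and transcription regulators and 0 of 3 deoxynucleotide enzymes. In the bases before the start only, a CHR match was present in 5 of 11 mitosis genes and 3 of 6 genes of the mitotic cyclin role, against 14.3% of detected genes, so part of the matches lay after the start. Birc5, the mitosis gene without a CHR match, also had no CCAAT box. A CCAAT box was found in 29 of 37 promoters (78.4%), against 43.1% and 41.1%. All 17 promoters with CHR also held CCAAT, a combination found in 7.87% of detected genes and 9.65% of all genes.

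In Mki67 and Top2a each stretch holds 2 CHR matches and several CCAAT boxes, as read above. Levels by motif overlapped: genes with a CHR match had a median of 12.1 TPM and those without 22.9 TPM, and genes with an E2F match 11.2 TPM against 20.8 TPM without. Motif matches are letters in a window, and no binding was measured here. Promoters of Aurkb, Foxm1, Rb1, Ccnd2, Gmnn, Ccne2, Ccnd1, Mcm4 and Ccna2 were not analysed.

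**Figure D1:**
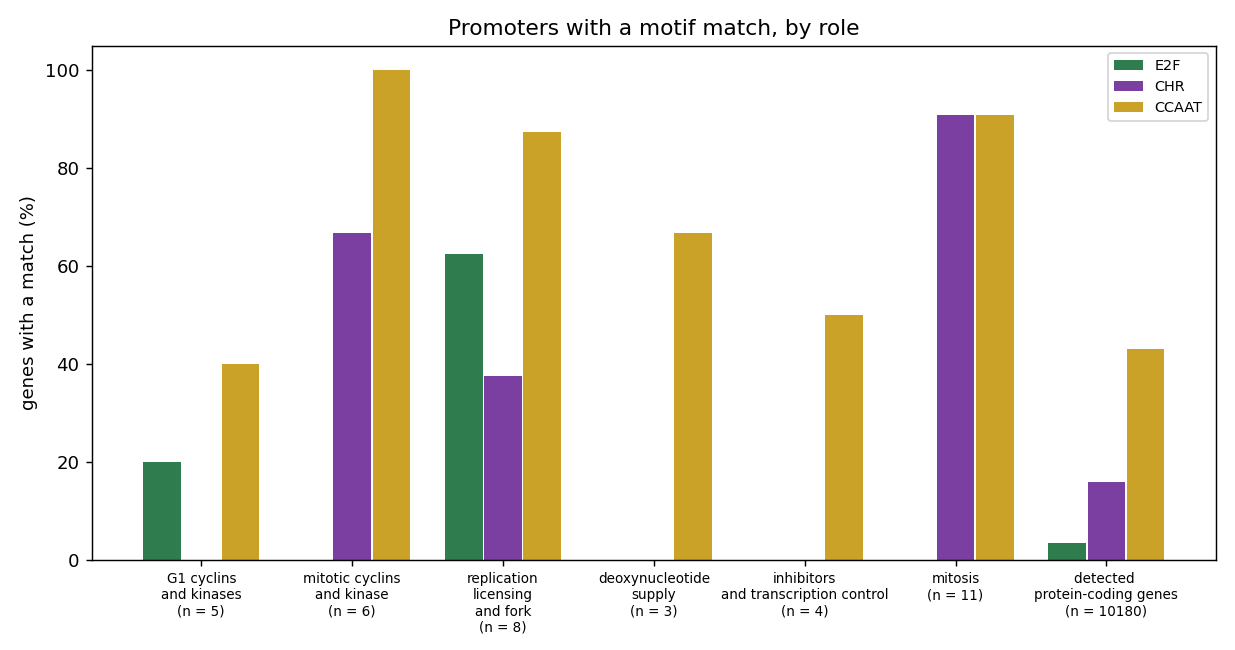
Percent of genes with a match to the E2F, CHR or CCAAT motif in the promoter window, by role, with the number of promoters (n) and all detected protein-coding genes at the right. CHR matches stand at 90.9% of mitosis genes and 66.7% of the mitotic cyclin role, and E2F matches at 62.5% of licensing and fork genes, against 15.8% and 3.34% of detected genes; with bases before the start only, these become 45.5%, 3 of 6 genes and 37.5%, against 14.3% and 2.80%.

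All 46 genes were detected, meaning 1 TPM or more in both pups, as were 60.7% of the 21461 protein-coding genes. Their median level was 15.3 TPM (16.2 in pup 1 and 14.0 in pup 3), close to the 17.0 TPM of the 13017 detected protein-coding genes. Of the 46, 29 reached 10 TPM and 2, Cdk4 and Pcna, reached 100 TPM in both pups. Levels ran from 2.40 ± 0.594 TPM (SD, n = 2, as for all means below) for Mki67 to 606 ± 62.8 for Cdk4, a 253-fold range. Without Cdk4 the range was 45.9-fold. In bulk tissue, fewer dividing cells and less RNA per dividing cell cannot be told apart.

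Neighbours in the order of levels were taken to differ beyond the spread where the log2 ratio of their TPM + 0.1 had the same sign in both pups and a mean over 3 SD. With 2 pups, normal scatter around no difference would pass this rule in 14.7% of ratios. Of the 45 neighbouring pairs, 8 passed, among them Cdk4 over Pcna, Mcm7 over Ccnd3 and Ccnd3 over Cdk1, and 25 changed order in 1 of the pups. The order is therefore coarse, with a distinct top and a crowded middle.

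**Figure D2:**
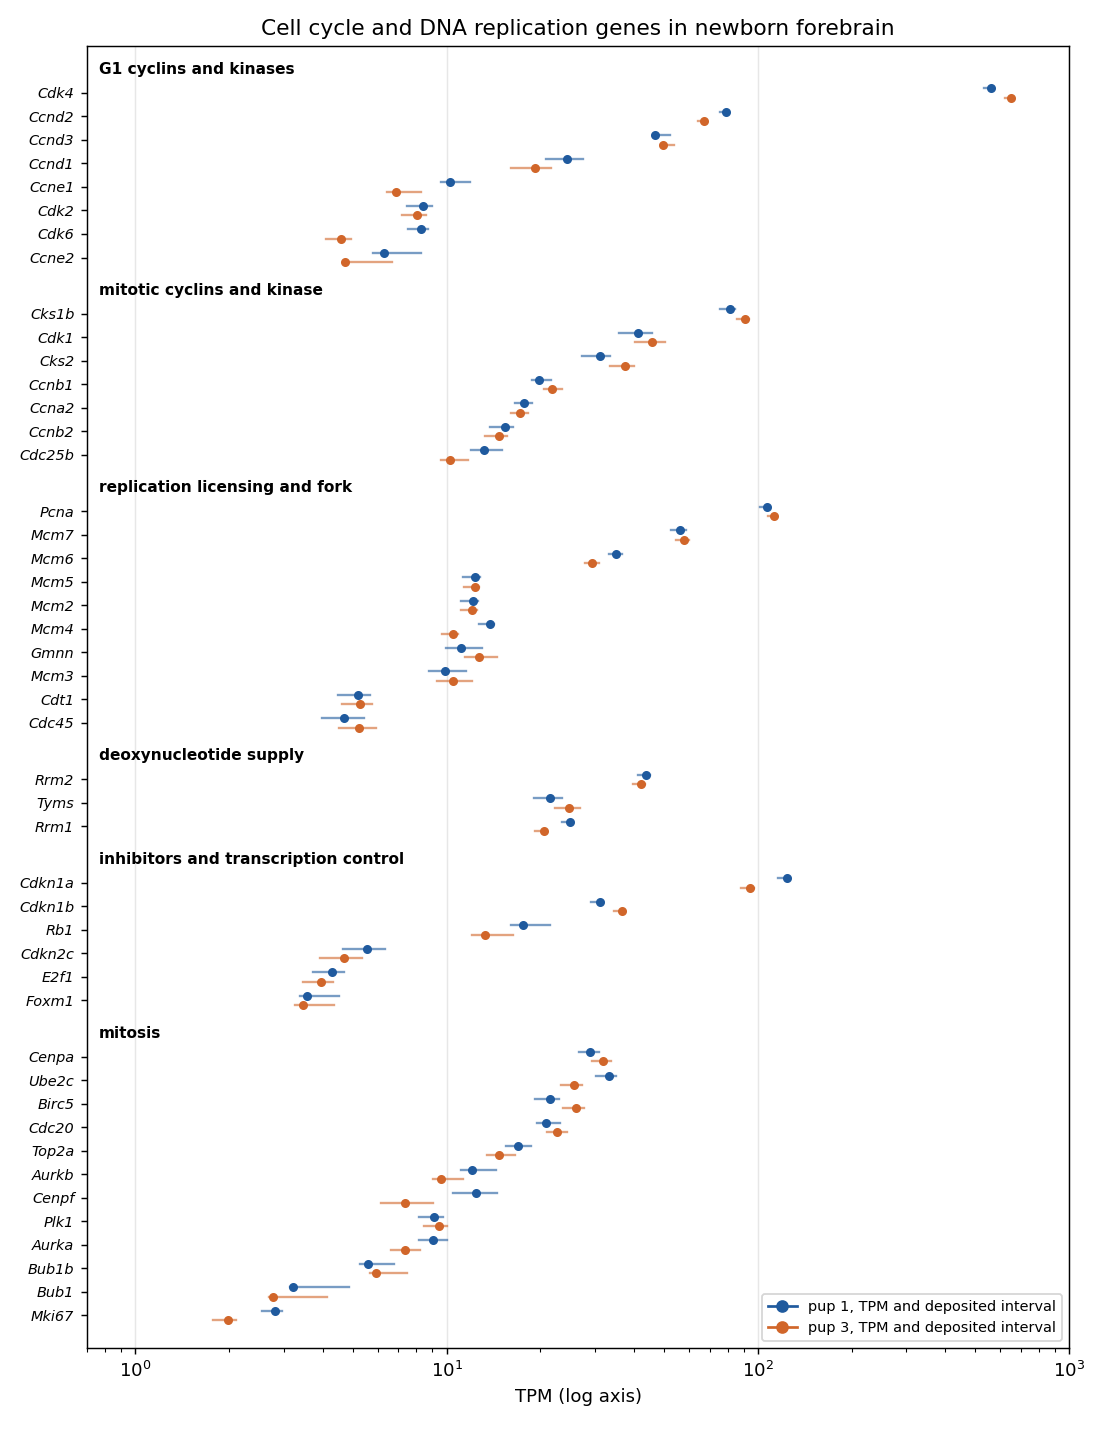
TPM on a log axis in pup 1 (blue) and pup 3 (orange) for each gene, grouped by role, with lines for the deposited credibility intervals, which can lie off the point because they belong to the posterior mean. Cdk4 stands apart at 562 and 651 TPM, and Mki67 is lowest at 2.82 and 1.98 TPM.

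Among G1 cyclins and kinases, Cdk4, the partner of D-type cyclins (chromosome 10, 127063534 to 127067920), had 562 TPM in pup 1 and 651 in pup 3, at percentile 98.6 of detected protein-coding genes. It made up 33.3% and 37.7% of the summed TPM of the 46 genes. Cdk6, the other kinase of D-type cyclins (chromosome 5, 3341485 to 3531008), had 8.29 and 4.57 TPM. Cdk4 was 67.0 and 139 times Cdk6 (log2 6.59 ± 0.75), the widest of the 28 ratios examined. Cdk2, the partner of E-type cyclins, had 8.37 and 8.01 TPM, and Cdk4 was 66.3 and 80.2 times Cdk2. Both ratios were larger than the spread between pups, and both shrank when only protein-coding transcripts were counted, as described with the isoforms.

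The D-type cyclins were graded. Ccnd2 had 78.9 and 67.0 TPM, Ccnd3 had 46.8 and 49.5 TPM, and Ccnd1 had 24.4 and 19.2 TPM. Ccnd2 exceeded Ccnd1 by 3.22 and 3.48 times (log2 1.74 ± 0.078), beyond the spread. Ccnd3 exceeded Ccnd1 by 1.91 and 2.57 times, also beyond the spread, whereas Ccnd2 over Ccnd3, at log2 0.59 ± 0.22, was not. Over protein-coding transcripts both gaps to Ccnd1 were wider, at 6.15 and 5.10 times for Ccnd2 and 3.61 and 3.72 times for Ccnd3. The E-type cyclins, which act later in G1, were lower, with Ccne1 at 10.3 and 6.86 TPM and Ccne2 at 6.30 and 4.73 TPM.

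For entry into mitosis, Cdk1, the mitotic kinase, had 41.1 and 45.6 TPM and exceeded Cdk2 by 4.87 and 5.64 times (log2 2.39 ± 0.15), or 2.38 and 2.73 times over protein-coding transcripts. Its cyclins were close to one another: Ccnb1 had 19.8 and 21.8 TPM, Ccna2 17.7 and 17.2 TPM, and Ccnb2 15.4 and 14.7 TPM. Ccnb1 exceeded Ccnb2 beyond the spread (log2 0.46 ± 0.14), but Ccna2 and Ccnb1 did not differ beyond it. The small kinase-binding proteins were higher, Cks1b at 81.4 and 90.9 TPM and Cks2 at 31.01 and 37.6 TPM, a ratio of 2.62 and 2.42. Cdc25b, a phosphatase that activates Cdk1, had 13.2 and 10.3 TPM.

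In licensing and at the fork, Pcna, the sliding clamp of DNA polymerases, led with 107 and 113 TPM. Mcm2 to Mcm7 form the replicative helicase as a ring with 1 copy of each subunit, yet their transcripts differed in level. Mcm7 had 56.1 and 57.9 TPM and Mcm6 35.1 and 29.3 TPM. The other 4 were close together: Mcm5 had 12.3 TPM in both pups, Mcm2 12.2 and 12.1, Mcm4 13.8 and 10.5, and Mcm3 9.88 and 10.5. Mcm7 was 5.63 and 5.49 times Mcm3 (log2 2.47 ± 0.025), among the most closely matched ratios between the pups, and Mcm5 over Mcm4 changed sign. Mcm7 lies opposite Ap4m1 and Cops6, with 421 and 64 shared bases, and 33.4% of its 31-base words occur in other genes, chiefly the pseudogene Gm5487, so its level is uncertain.

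Cdt1, which loads the helicase, had 5.18 and 5.27 TPM, and Gmnn (geminin), which inhibits Cdt1, 11.2 and 12.7 TPM. Gmnn was 2.13 and 2.38 times Cdt1 (log2 of Cdt1 over Gmnn -1.17 ± 0.11), beyond the spread. Cdc45, which activates the helicase, was the lowest of this role at 4.67 and 5.24 TPM.

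Among enzymes of deoxynucleotide supply, the ribonucleotide reductase subunits differed beyond the spread. The small subunit Rrm2, whose protein is tied to S phase, had 43.6 and 42.2 TPM. The large subunit Rrm1 had 25.0 and 20.5 TPM, so that Rrm2 was 1.74 and 2.05 times Rrm1. Tyms, thymidylate synthase (chromosome 5, 30058202 to 30073617), had 21.5 and 24.8 TPM over all its transcripts.

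Of the inhibitors, Cdkn1a (p21; chromosome 17, 29090976 to 29100727) was highest with 124 and 94.3 TPM, below Cdk4 and Pcna in mean level. Cdkn1b (p27), the inhibitor known for cell cycle exit of neural progenitors, had 31.2 and 36.6 TPM, and Cdkn2c (p18), an inhibitor of Cdk4 and Cdk6, 5.56 and 4.67 TPM. Cdkn1a was 3.97 and 2.57 times Cdkn1b, and 21.9 and 19.8 times Cdkn2c, both beyond the spread. By TPM, the Cdkn1a level rested mostly on Cdkn1a-202, a protein-coding transcript of 748 nt with 76.4% and 78.8% of the gene's TPM. Its lead was smaller by expected counts, with 1531 and 1357 of the gene's 2765 and 2355. Cdkn1a-201, of 1910 nt, had 26.0 and 19.3 TPM from 1173 and 983 counts. Rb1, the retinoblastoma protein gene, had 17.7 and 13.3 TPM, 4.06 and 3.32 times E2f1. The activators E2f1 (4.27 and 3.94 TPM) and Foxm1 (3.55 and 3.46 TPM) were among the 4 lowest genes.

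The 12 mitosis genes had a median of 10.4 TPM. Over all transcripts the highest were Cenpa, the histone variant of centromeres, at 28.8 and 31.7 TPM, and Ube2c, the ubiquitin-conjugating enzyme of the anaphase-promoting complex, at 33.3 and 25.7 TPM. Birc5 (survivin) had 21.6 and 26.1 TPM and Cdc20, an activator of that complex, 20.9 and 22.6 TPM. Over protein-coding transcripts Cenpa, at a mean of 14.3 TPM, was below Ube2c, Birc5 and Cdc20. Top2a, the topoisomerase that untangles chromosomes, had 16.9 and 14.8 TPM, and the kinases Aurkb, Plk1 and Aurka had between 7.34 and 12.1 TPM. The checkpoint genes Bub1b (5.61 and 5.95 TPM) and Bub1 (3.22 and 2.77 TPM) were lower.

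Mki67, the gene of the proliferation marker Ki-67 (chromosome 7, 135689784 to 135716361), was the lowest of all 46 per length, at 2.82 and 1.98 TPM. It is the longest, at 10075 nt. Its 699 and 555 expected counts were below the median of the set, 782.5 and 747 counts, and above the lowest, 208 and 220. Top2a was 5.83 and 7.14 times Mki67 in TPM (log2 of Mki67 over Top2a -2.69 ± 0.21). Level and length were related across the 46 genes, with a Spearman rho of -0.44 between mean transcript length and mean TPM, against -0.31 across the 13017 detected protein-coding genes. These are correlations across genes of the same libraries, given as a description.

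The 28 gene pairs were chosen with earlier results of these data known, so the count that passed is a description. Of their 28 ratios, 22 were larger than the spread between pups and 27 had 1 sign in both. The 6 that did not pass were Ccnd2 over Ccnd3, Ccna2 over Ccnb1, Plk1 over Aurka, Cdc20 over Ube2c, Cenpa over Cenpf and Mcm5 over Mcm4. Aurka over Aurkb passed at log2 -0.40 ± 0.024 over all transcripts, but not over protein-coding transcripts (-0.14 ± 0.15).

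**Figure D3:**
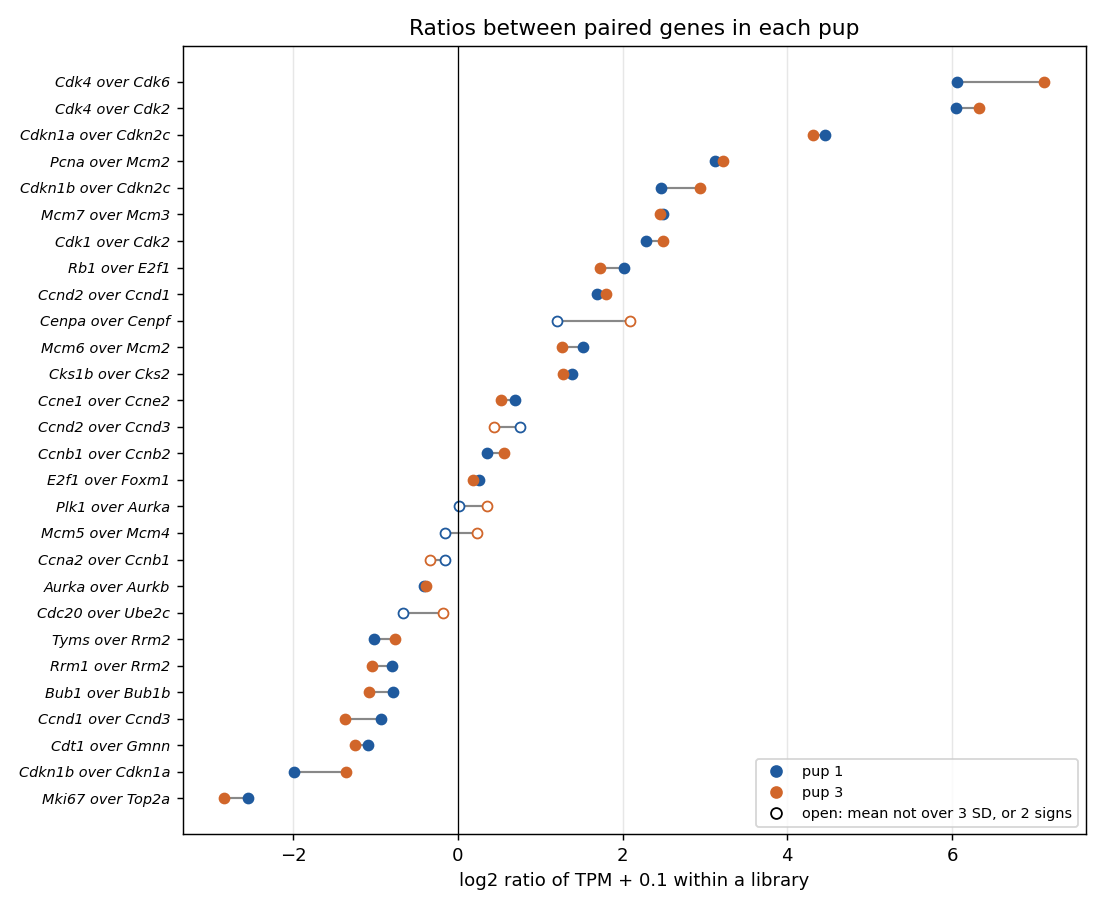
Log2 ratio of TPM + 0.1 of paired genes in pup 1 (blue) and pup 3 (orange), with filled points for the 22 pairs whose mean exceeds 3 SD with 1 sign. Cdk4 over Cdk6 lies at 6.07 and 7.12 and Mki67 over Top2a at -2.54 and -2.84.

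Levels within complexes of the same machinery were described by the highest and lowest subunit, which were picked by their mean TPM, so the gaps are a description. In the origin recognition complex, which marks origins, Orc4 had 59.8 and 64.5 TPM and Orc1 0.73 and 0.46 TPM. Orc4 was thus 72.1 and 115 times Orc1 (log2 6.51 ± 0.48), and Orc1 rested on 27.0 and 21.4 expected counts. The deposited intervals of Orc1 ran from 0.577 to 2.78 and from 0.435 to 2.35 TPM, so the size of the gap is uncertain. In GINS, a helicase partner, Gins4 was 10.6 and 12.2 times Gins3. In the clamp loader, Rfc2 was 3.06 and 3.63 times Rfc1. The RPA subunits, which coat single-stranded DNA, were close to one another, with Rpa1 over Rpa2 at log2 0.53 ± 0.26. In NDC80, a kinetochore complex, Spc25 was 4.12 and 5.61 times Ndc80. In the chromosomal passenger complex Birc5 was 2.11 and 4.00 times Incenp (log2 1.54 ± 0.65). This gap, like that of RPA, was not beyond the spread.

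Of 100 further genes of the pathway, 96 were detected, with a median of 9.68 TPM. In origin licensing and firing, 13 of 14 were detected, with Orc4, Orc3 (59.2 and 55.4 TPM) and, lowest, Orc1. All 23 genes of polymerases and fork maintenance were detected at a median of 23.9 TPM, led by Rfc2 (78.6 and 80.8 TPM) and Dut, which removes dUTP (77.6 and 79.7 TPM), with the polymerase subunit Pola1 lowest (2.19 and 1.62 TPM). Of the E2F, pocket protein and MuvB genes 14 of 16 were detected, at a median of 7.19 TPM, led by the E2F partner Tfdp1 (84.0 and 65.5 TPM) and the MuvB subunit Lin37 (45.0 and 40.4 TPM), with E2f8 lowest (0.99 and 0.85 TPM). The median of this control list was thus below that of the fork genes, a comparison of levels per length with no test.

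Among 16 brakes and checkpoint genes, 15 were detected. The inhibitors Cdkn2d (p19; 109.9 and 96.0 TPM) and Cdkn1c (p57; 70.7 and 74.9 TPM) were highest, and Cdkn2a had 0 expected counts in both pups, with deposited upper bounds of 0.244 and 0.215 TPM. With Cdkn1a, inhibitors thus spanned from listed at 0 to over 100 TPM. All 31 further mitosis genes were detected, led by Fzr1 (114 and 106 TPM), the activator of the anaphase-promoting complex that is also active outside mitosis, and Bub3 (107 and 101 TPM), with the separase gene Espl1 lowest (1.13 and 1.01 TPM).

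The isoform estimates changed the picture for a few genes. Transcript types were taken from GENCODE M21, whereas the authors' tables use M4. Of the 36 genes with several transcripts, 33 (91.7%) were led by 1 transcript in either pup, against 91.2% of detected protein-coding genes. In 11 of the 46 genes (23.9%, against 29.7%), transcripts annotated as protein coding held under 90% of the TPM, and in 4 genes (8.70%, against 7.54%) under 50%. These 4 were Tyms, Cdk4, Cenpa and Cdk1.

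Cdk4's leading transcript in both pups was Cdk4-209, a retained-intron transcript of 468 nt (chromosome 10, 127066076 to 127067235), with 39.5% and 39.4% of the gene's TPM. Protein-coding transcripts of Cdk4 summed to 159 and 205 TPM, 28.4% and 31.6% of the gene's TPM. By expected counts, which do not weight short transcripts up, their share was 49.6% and 52.7%. Cdk4 was still 19.0 and 44.0 times Cdk6 over protein-coding transcripts (log2 4.85 ± 0.86). Cdk4 shares 641 bases with Tspan31 on the other strand (81.5 and 67.5 TPM), and since no source used here states whether counting used strand, reads in those bases are uncertain. Cdk4-209 shares no exonic base with that gene.

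Tyms was estimated mostly from transcripts annotated as other than protein coding. Tyms-205, annotated as a target of nonsense-mediated decay, held 38.9% and 45.6%, and the retained-intron transcript Tyms-202 held 40.0% and 41.3%, so the leader changed between pups. The protein-coding Tyms-201, of 3163 nt, had 1.74 and 1.60 TPM from 133 and 138 expected counts. Over protein-coding transcripts, Rrm2 was 23.5 and 24.5 times Tyms, against 2.02 and 1.70 times over all transcripts. By expected counts, which do not weight short transcripts up, the protein-coding share of Tyms was 22.5% and 20.2%, against 8.09% and 6.45% by TPM.

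Cdk1 and Cenpa had protein-coding shares of 48.8% and 48.4%, and of 46.1% and 48.0%, with 20.1 and 22.1 TPM (Cdk1) and 13.3 and 15.2 TPM (Cenpa) over protein-coding transcripts. For Cdk1 the remainder lay in short retained-intron transcripts, Cdk1-203 of 378 nt and Cdk1-204 of 475 nt, and 78.7% and 78.6% of its counts were protein coding. In Ccnd1, the retained-intron transcript Ccnd1-202 of 470 nt (chromosome 7, 144937295 to 144938197) held 47.7% and 32.0% of TPM from 107 and 64.0 counts. Protein-coding Ccnd1-201 had 12.8 and 13.1 TPM, so the lower TPM estimate of Ccnd1 in pup 3 lay in the short transcript. The gene's intervals overlapped (20.8 to 27.3 and 16.1 to 21.6 TPM). Its expected counts were 1262 and 1401, with a log2 ratio of 0.26 after TMM scaling.

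The leader changed in 2 other genes. Cdk2 was split between protein-coding Cdk2-201 (49.6% and 64.7%) and Cdk2-202 (50.4% and 35.3%). In Cenpf, which encodes a large kinetochore protein, protein-coding Cenpf-203 led by TPM in pup 1 (41.1% and 35.9%). Cenpf-201, a nonsense-mediated decay transcript of 609 nt, led in pup 3 (25.5% and 36.6%), from 40.2 and 38.8 expected counts. Protein-coding Cenpf-204, of 11130 nt, had 423 and 385 counts. Of the counts of Cenpf, 93.3% and 92.4% were protein coding. The widest gaps in share between pups, besides Cdk2-201 and Ccnd1-201, were in Cdc25b-202 (55.0% and 76.2%), Aurkb-201 (70.1% and 86.3%) and Ccne2-202 (59.1% and 74.3%), in each case the transcript with the highest mean share. In all 5, that share was higher in pup 3.

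**Figure D4:**
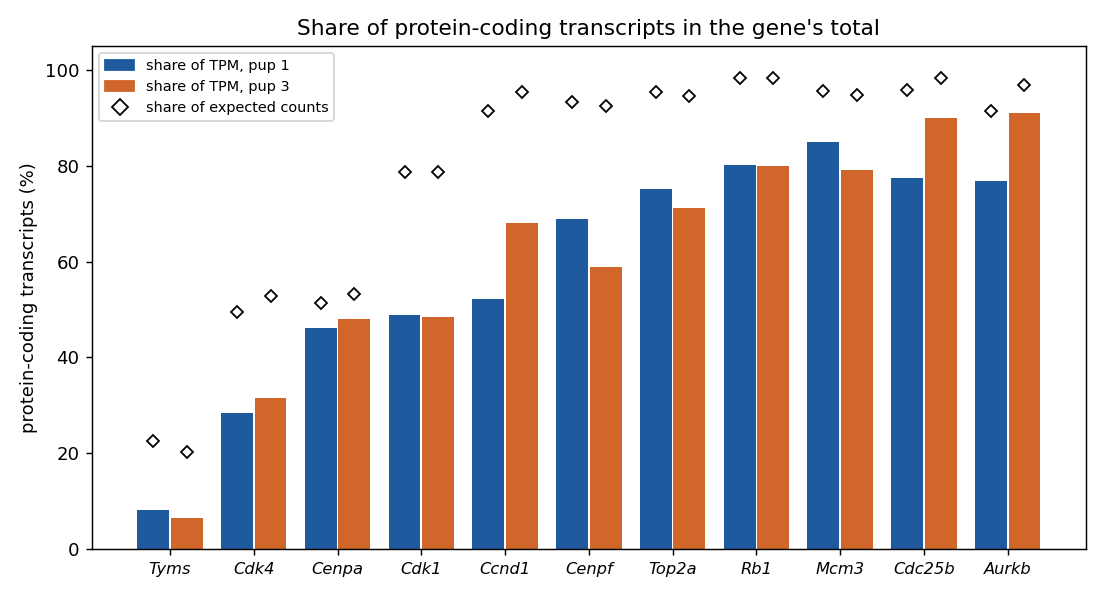
Percent of each gene's TPM (bars, pup 1 blue and pup 3 orange) and of its expected counts (diamonds) in transcripts annotated as protein coding, for the 11 genes with a mean share of TPM under 90%. Tyms is lowest at 8.09% and 6.45% of TPM, and the diamonds stand above the bars in all 11 genes.

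Between the pups, no gene of the 46 differed by the rule used: a mean TPM of 1 or more, a ratio of TPM + 0.1 of 2-fold or more, and deposited credibility intervals that do not overlap. By the same rule 0.127% of 14985 genes were higher in pup 3 and 3.85% were lower. With 1 library per pup this rule compares 2 libraries and gives no p-value, and the level of the intervals is not stated in the file headers. At a 1.5-fold minimum, 2 of the 46, Cdk6 and Cenpf, were lower in pup 3 and 0 higher, against 16.5% and 0.42% of all genes. Both calls were lost under TMM scaling of the counts, where the log2 ratios were -0.57 for Cdk6 and -0.29 for Cenpf, each short of 1.5-fold.

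Cdk6 had the widest ratio, 1.80-fold, from an interval of 7.54 to 8.70 TPM in pup 1 to one of 4.10 to 4.91 in pup 3. Cenpf followed at 1.68-fold and Ccne1 at 1.49-fold. In all, 44 of 46 genes were within 1.5-fold, against 78.6% of all genes, and the intervals of 16 (5 higher and 11 lower in pup 3) did not overlap, against 53.6% of all genes. Another measure, an exact binomial test of rounded counts after TMM scaling, gave an adjusted p under 0.05 for 33 of 46 genes (71.7%). For all genes the share was 58.7%. This test compares the 2 libraries. It differs from the intervals in criterion and in scaling, and the part of each was not tested. Directions depended on the scaling, since 37 of 46 ratios were above 0 after TMM scaling. The 5 with a higher interval in pup 3 were Cdk4, Cks1b, Cks2, Cdkn1b and Birc5.

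The median log2 ratio of pup 3 over pup 1 was -0.049 across the 46 genes and -0.27 across all 14985 genes, so the genes lay 0.22 above the shift of all genes. After TMM scaling of the counts the same medians were 0.22 and 0.0069. Relative to the median of all genes, 32 of 46 were above it, 69.6% of the set, where that median splits all genes evenly by construction. By role, the median was 0.14 for the mitotic cyclin role, 0.036 for licensing and fork genes, -0.050 for deoxynucleotide enzymes, -0.18 for inhibitors and transcription regulators, -0.20 for mitosis and -0.29 for G1 cyclins and kinases. Signs of these medians depend on the scaling: after TMM scaling all 6 were positive, from 0.11 for mitosis to 0.41 for the mitotic cyclin role.

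On unscaled TPM, 19.5% of all genes had a ratio above 0, and 50.9% after TMM scaling. In mitosis, 5 of 12 ratios were above 0 (8 of 12 after TMM scaling), from 0.27 for Birc5 to -0.75 for Cenpf. Of the 10 licensing and fork genes, 6 were above 0 (9 after TMM scaling) and 9 were above the median of all genes, Mcm4 at -0.39 being the exception. After TMM scaling all 7 genes of the mitotic cyclin role and all 3 deoxynucleotide enzymes were above 0, against 4 of 7 and 1 of 3 on unscaled TPM. Of the 14 E2F, pocket protein and MuvB genes with a ratio, 0 were above 0 (5 after TMM scaling), with a median of -0.42, and 4 were above the median of all genes. None of the 96 further genes with a ratio differed by the 2-fold rule.

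The ratio between pups went with transcript length. Spearman's rho between length and log2 ratio was -0.50 across the 46 genes and -0.45 across 14985 genes, all from the same 2 libraries. When all genes were divided into 3 equal classes by length, the cell cycle genes had medians of 0.15 (13 genes, up to 1722 nt), -0.049 (20 genes, up to 3045 nt) and -0.24 (13 genes, longer). All genes had -0.062, -0.26 and -0.44 in these classes. The cell cycle genes were thus about 0.2 above all genes in each class, and both declined alike with length. The part of length in any single ratio was not tested.

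**Figure D5:**
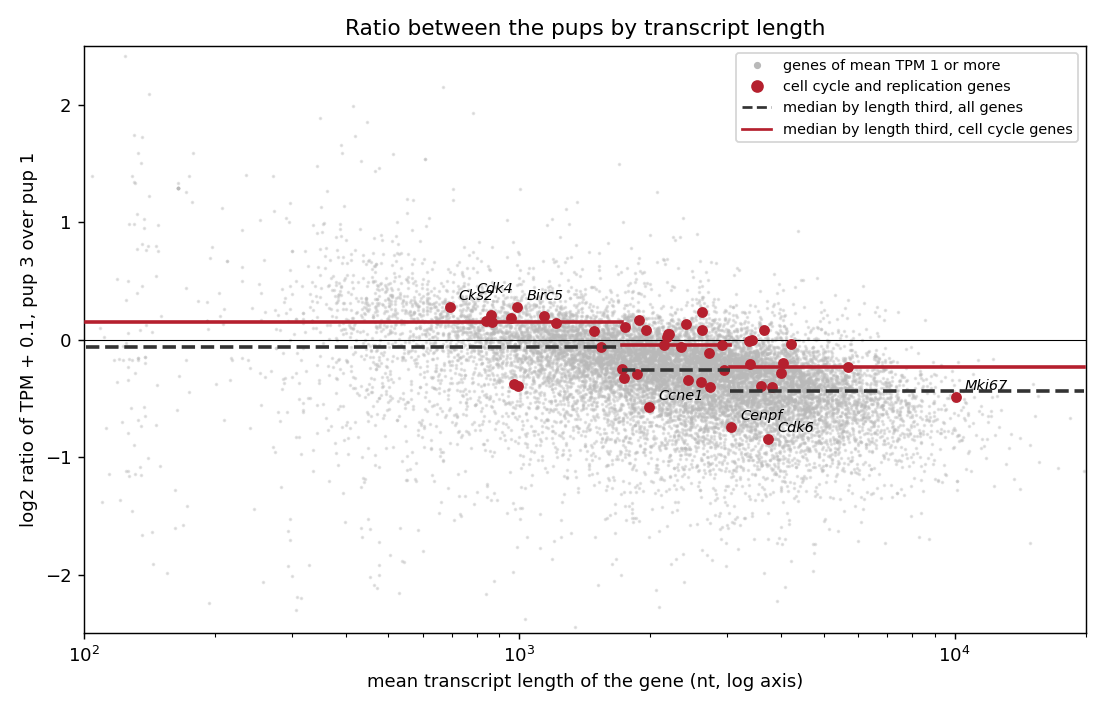
Log2 ratio of TPM + 0.1, pup 3 over pup 1, against mean transcript length on a log axis, for genes of mean TPM 1 or more (grey) and the 46 cell cycle and replication genes (red); lines are medians by length class, and 81 genes outside the plotted ratios are not shown. The red medians (0.15, -0.049, -0.24) lie above the dashed medians of all genes (-0.062, -0.26, -0.44).

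Marker genes of cell types that could carry the cycle, or dilute it, were measured in the same libraries. Radial glia markers were all detected (8 of 8), with summed levels of 2830 and 2885 TPM, led by Fabp7 at 2258 and 2433 TPM and Vim at 237 and 189, with Hes1 lowest at 9.74 and 10.9. Their median log2 ratio was -0.34, against -0.27 across all genes. After TMM scaling it was 0.026, with 4 of 8 above 0. Intermediate progenitor and neuroblast markers (6 of 6) summed to 173 and 134 TPM, led by Dlx1 (120.5 and 87.0 TPM) and Dlx2 (37.4 and 33.3 TPM), with Neurog2 at 1.91 and 2.16. Oligodendrocyte precursor markers (5 of 5) summed to 152 and 129 TPM, with Olig1 at 119 and 106, Olig2 at 13.2 and 10.0 and Cspg4 at 4.06 and 2.68 TPM, and all 5 were lower in pup 3, as were 12055 of 14985 genes, while 1 of the 5 was above 0 after TMM scaling. The summed level of the 46 genes was 1684 and 1726 TPM, or 1123 and 1076 without Cdk4.

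Markers of other cells were also present. Neuronal markers (5 of 5) summed to 5212 and 4441 TPM, led by Tubb3 (1836 and 1700 TPM) and Gap43 (1694 and 1337 TPM), with Rbfox3 at 70.9 and 60.0. Erythroid genes (5 of 5) summed to 2264 and 3207 TPM, led by the globins Hba-a2 (1049 and 1422 TPM) and Hbb-bs (535 and 843 TPM), and Alas2 had 6.70 and 7.63, and all 5 were higher in pup 3 (median log2 0.44). Endothelial markers (5 of 5) summed to 145 and 142 TPM, led by Cldn5 (109 and 114 TPM) and Pecam1 (9.22 and 9.48 TPM), with Flt1 at 8.56 and 5.23. Microglial markers (5 of 5) summed to 127 TPM in both pups, led by C1qb (58.4 and 65.0 TPM) and C1qa (36.6 and 36.1 TPM). Cx3cr1 was lowest at 9.16 and 4.25 TPM. By the 2-fold rule, Cx3cr1 (log2 -1.09) and the forebrain marker Emx2 (-1.29) were lower in pup 3, as were 3.85% of 14985 genes. After TMM scaling the log2 ratios of Cx3cr1 and Emx2 were -0.80 and -0.96. The part of any of these cells in the cell cycle levels was not tested.

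Reads shared with near copies or overlapping genes limit some values further. Of the 31-base words of Cks2, 31.7% occur in the pseudogene Gm15452 (31.7 and 30.2 expected counts), and 23.3% of those of Pcna in Pcna-ps2 (27.8 and 30.9 counts). For Ccnb1, 22.9% occur in Ccnb1-ps (5.31 and 4.68 counts), and for Cdc20, 23.4% in Gm7856 (0 counts). Rb1 surrounds Lpar6 and overlaps Rcbtb2 (42.1 and 32.7 TPM), Ccnd1 overlaps LTO1, Ccne2 overlaps Ints8 and Ccna2 overlaps Exosc9, all on the other strand. The counts given here for the copies were small beside those of the genes. By TPM the gap was narrower for Gm15452, at 9.05 and 7.62 TPM against 31.01 and 37.6 for Cks2. For Gm5487, the main copy of Mcm7, no value was available. No source used here states how reads were divided between genes and copies.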

How the data were processed

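The authors deposited, for each library, a gene and a transcript table with expected counts (estimated read counts, not whole), TPM, posterior mean TPM and the bounds of its credibility interval (a signal in TPM), and the percent of a gene's TPM in each transcript, per the file headers. The deposited notes name assembly mm10 and GENCODE M4. For the aligner, quantifier, strand setting and interval level, nothing was given in the sources used here. Symbols, types and positions came from GENCODE M21 by unversioned identifier. The genes, lists and pairs were chosen with earlier results of these data known. Named genes were the 46 genes, the 2 highest and the lowest of each further list, and isoforms whose leader changed, was not protein coding in both pups or had the 5 largest gaps. A gene that the rule would name is not reported here.

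Levels are TPM, ratios use TPM + 0.1, and n = 2. No test across pups was made, since the smallest p of an exact sign-flip test is 0.5. The exact binomial test compared counts of the 2 libraries only. TMM factors came from edgeR 4.0.16 (R 4.3.3) on expected counts, and the rest was done in Python 3.11.15 (pandas 2.3.3, numpy 2.4.6, scipy 1.17.1). Rules were tested on simulated data. Promoters came from RefSeq on GRCm38.p6, and 31 of 41 windows matched an annotated transcript after the start. Intervals cover estimation error only, and PCR copies were not told apart. Alternatives changed the threshold, pseudocount, scaling, fold, share and window, left out each replicate or, chosen after seeing the data, kept protein-coding transcripts only.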

Additional observations from a re-analysis of the deposited data

How the results depend on the processing

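No paired analysis was possible because both libraries belong to 1 group. The count of detected genes stayed between 45 and 46 under every alternative, and the median level lay between 14.0 and 16.2 TPM with either pup alone; with protein-coding transcripts only, chosen after seeing the data, it was 12.2 TPM. Of 28 pair ratios, 20 to 22 passed with another pseudocount or posterior mean TPM, and 19 with protein-coding transcripts, where Ccne1 over Ccne2 (log2 0.72 ± 0.28), Ccnb1 over Ccnb2 (0.41 ± 0.14) and Aurka over Aurkb (-0.14 ± 0.15) no longer passed. None of the 46 genes was called between pups under any 2-fold alternative. Of all genes, 43 were higher and 183 lower in pup 3 with TMM scaling, and 48 and 174 with median-of-ratios scaling. An exact binomial test, with its 2-fold minimum still on unscaled TPM, gave 55 higher and 625 lower. At 1.5-fold, 2 of the 46 were lower in pup 3 on TPM.

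The median log2 ratio of the 46 genes was 0.22 with TMM, 0.24 with median-of-ratios scaling and 0.10 with counts scaled by library total. Relative to all genes it was 0.19 to 0.22 in all of these and with other pseudocounts, and 0.20 with protein-coding transcripts. With no minimum TPM it was -0.049, because the median of all 43346 genes is then 0. CHR matches before the start only were found in 11 of 37 promoters. Depth limits the low genes: the lowest of the 46 had 208 counts.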
